A study of Gallus gallus with 5 samples.

Results

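Chicken chromosomes 17, 18, 19, 20, 21 and 22 are microchromosomes of middle size, and the peaks on them are described here along each chromosome. Members were all peaks of the 5 deposited lists that lie on these 6 chromosomes, whatever their height. They numbered 49943 of 425322 peaks, or 11.7%. H3R2me2s gave 14093 of them in replicate 1 and 12351 in replicate 2, H4R3me2a gave 10980 and 11869, and the input gave 650. These were 13.7, 10.25, 14.1, 10.5 and 6.38% of the respective lists. No filter was applied, so every member entered.

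The study mapped a pair of histone marks by chromatin immunoprecipitation with sequencing (ChIP-seq) in immature, polychromatic erythrocytes of chicken in G0, using their nuclei. These are red cells that keep a nucleus and no longer divide. H3R2me2s and H4R3me2a each had 2 libraries and input chromatin, taken without antibody, had 1. All came from nuclei fixed with 0.5% formaldehyde and sheared to 200 bp, and the labels name no treatment and no age. The labels do not say how many birds the nuclei came from, and they give conflicting breeds, so neither is used. Replicate 1 of each mark was sequenced on SOLiD from fragments of 100 to 250 bp and called with MACS 1.4.2 against a shared control, whereas replicate 2 and the input were sequenced on Illumina with peaks from MACS 2.0.10.20120913 and no control. Depth after removal of repeated positions ran from 10.3 to 35.1 M tags per library and was higher in replicate 2. Replicate number therefore stands for platform, depth, caller and control together, and their effects cannot be told apart. The alignment file numbers in the headers of the 3 Illumina lists disagree with the labels, so every statement on replicate 2 and the input rests on the labels.

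Microchromosomes are the many small chromosomes of birds. They are known to be rich in genes and in G and C, to replicate early in S phase and to sit towards the centre of the nucleus, whereas the large macrochromosomes hold long gene-poor stretches. H4R3me2a is histone H4 with an asymmetric dimethyl group on arginine 3, the main product of PRMT1 on histones, and marks active chromatin, among it the globin genes of chicken red cells. H3R2me2s is histone H3 with a symmetric dimethyl group on arginine 2. It is made by PRMT5 and PRMT7 and is bound by WDR5, a subunit of H3K4 methyltransferase complexes. Genes of red cells that the annotation of assembly GRCg7b places on these chromosomes include GFI1B, a transcriptional repressor of erythroid cells, and ALAD, an enzyme of haem synthesis, on 17, BCL2L1, a survival factor, on 20 and ANK1, which ties the membrane to the spectrin skeleton, on 22. That assembly is not the build of the lists, so no peak was assigned to a gene.

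Both marks were dense on all 6 chromosomes in both replicates. Spanned length, the position of the highest peak end in any list, was 11.2 Mb for 17, 10.9 for 18, 9.94 for 19, 13.99 for 20, 6.96 for 21 and 3.94 Mb for 22, 56.9 Mb in all. Over this length H3R2me2s peaks numbered 248 per Mb in replicate 1 and 217 in replicate 2. H4R3me2a peaks numbered 193 and 208 per Mb. The input list gave 11.4 per Mb. Cover, the percent of bases under a peak, reached 28.2 and 16.98% with H3R2me2s. H4R3me2a reached 24.96 and 11.6%, and the input 0.251%. Replicate 1 covered more than replicate 2 for both marks, and H3R2me2s covered more than H4R3me2a in both replicates. H3R2me2s was also the deeper library in both, with 14.2 against 10.3 M tags in replicate 1 and 35.1 against 31.2 M in replicate 2. The callers' d, the fragment length estimated from the tags, differed too. It was 151 bp for H3R2me2s and 187 bp for H4R3me2a in replicate 1, and 334 and 236 bp in replicate 2. In replicate 2 the densities of the marks were close, while median peak widths were 640 and 439 bp. Mark, depth and d thus cannot be told apart here.

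The chromosomes resembled each other in replicate 2 and differed more in replicate 1. H3R2me2s density in replicate 2 ran only from 205 per Mb on 22 to 224 on 21, and H4R3me2a density from 188 on 22 to 218 on 21. In replicate 1, H3R2me2s gave 265, 249, 257, 233, 265 and 192 peaks per Mb on 17, 18, 19, 20, 21 and 22. Replicate 1 of H4R3me2a gave 216, 189, 198, 181, 210 and 140. Chromosome 22 was the lowest of the 6 in all 4 lists. Among the 28 autosomes numbered 1 to 28, the 6 chromosomes held ranks 7 to 16 by density over the 4 lists. The input did not follow the order of the marks, with 12.5, 12.7, 7.95, 13.2, 9.20 and 11.2 peaks per Mb on 17, 18, 19, 20, 21 and 22. With 2 libraries per mark on different platforms, differences between these chromosomes were not tested.

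**Figure D1:**
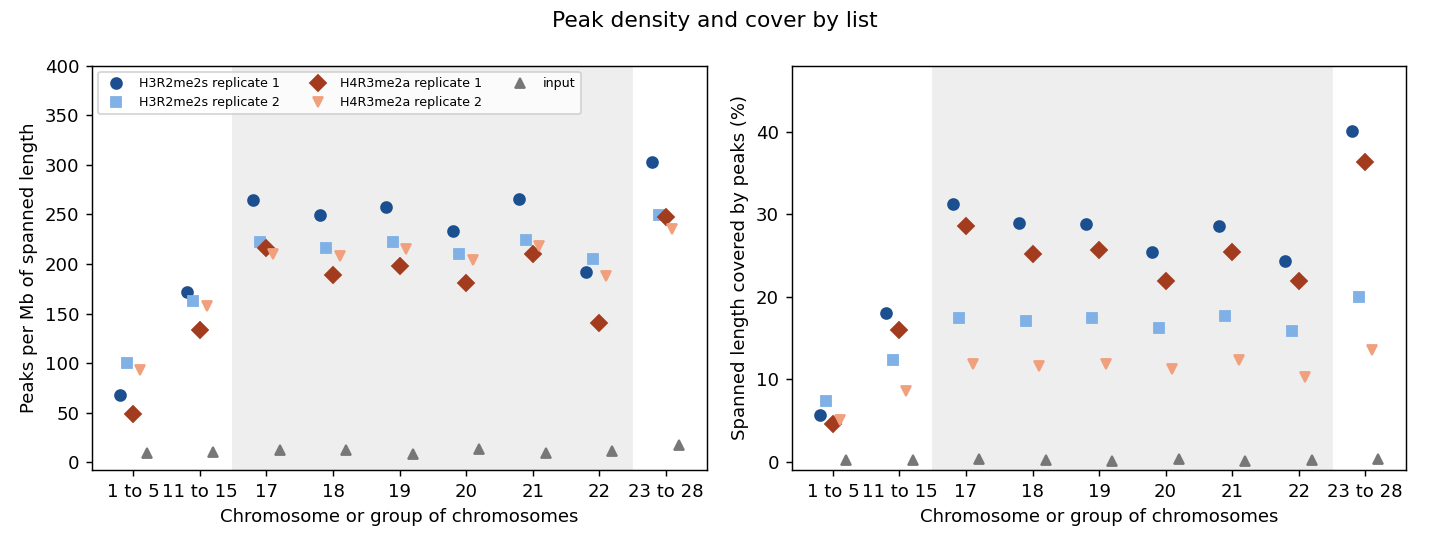
Peaks per Mb of spanned length (left) and percent of spanned length covered by peaks (right) on each of chromosomes 17 to 22 (grey band), with chromosomes 1 to 5, 11 to 15 and 23 to 28 pooled beside them. Each symbol is 1 peak list: each of the 4 ChIP lists lies between its 11 to 15 and its 23 to 28 value on all 6 chromosomes, and the input stays low throughout.

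Set against the rest of the genome, chromosomes 17 to 22 stood between the larger and the smaller microchromosomes. Their H3R2me2s density was 3.64 times that of macrochromosomes 1 to 5 in replicate 1 and 2.17 times in replicate 2. For H4R3me2a the ratios were 3.93 and 2.23, and for the input 1.18. Means were 2.91 ± 1.04 for H3R2me2s and 3.08 ± 1.20 for H4R3me2a (SD, n = 2). The marks' ratios overlapped, and their mean difference (H4R3me2a minus H3R2me2s) was 0.173. It gave p = 0.667 in a 2-sided exact permutation over libraries without pairing, whose smallest possible p is 0.333. The differences taken within replicates had an SD of 0.158, a paired spread that this test does not use. Relative to chromosomes 11 to 15 the density was 1.44 and 1.34 times as high for H3R2me2s and 1.44 and 1.33 times for H4R3me2a. Relative to chromosomes 23 to 28 it was 0.817 and 0.871 times for H3R2me2s and 0.779 and 0.885 times for H4R3me2a. Each of the 4 ChIP lists thus placed the 6 chromosomes above 1 to 5 and 11 to 15 and below 23 to 28.

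Peak width and height were described within lists. H3R2me2s peaks on chromosomes 17 to 22 had median widths of 780 and 640 bp, H4R3me2a peaks 896 and 439 bp, and input peaks 162 bp. On chromosomes 1 to 5 they were 668, 609, 752, 429 and 149 bp in the same order. The deposited fold enrichment, the authors' value per peak, had a median of 10.7 on chromosomes 17 to 22 and 9.34 on 1 to 5 for H3R2me2s replicate 1, and 16.1 and 13 for H4R3me2a replicate 1. In replicate 2 the order was turned, with 2.41 on 17 to 22 and 3.10 on 1 to 5 for H3R2me2s and 2.58 and 3.17 for H4R3me2a. The input list had the turned order too, 3.45 and 4.06. Tags per peak were higher on 17 to 22 than on 1 to 5 in both SOLiD lists, at a median of 51 against 38 with H3R2me2s, and of 55 against 39 with H4R3me2a. Summit pileup in the Illumina lists had a median of 79 against 50 with H3R2me2s, and of 45 against 31 with H4R3me2a. On 11 to 15 and 23 to 28 the median tags were 47 and 63 with H3R2me2s and 48 and 64 with H4R3me2a. The median pileup there was 68 and 98, and 40 and 55. Tags and pileup were thus higher on 17 to 22 than on 1 to 5 in all 4 lists, and below those on 23 to 28. Tags are counted over the whole peak, and SOLiD peaks were wider on 17 to 22 than on 1 to 5. Relative to 1 to 5, the fold over local background was higher in the SOLiD lists and lower in the Illumina lists. These differ in platform, depth, caller and control at once, and no part of these was tested.

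In bins of 250 kb the marks rose and fell several times along every chromosome. The 229 bins had a lowest, median and highest H3R2me2s cover of 0, 24.6 and 67.6% in replicate 1 and 0, 17.9 and 27.5% in replicate 2. For H4R3me2a they were 0, 20.4 and 70.1% in replicate 1 and 0, 12.1 and 22.6% in replicate 2. The spread between bins was wider in replicate 1, with a coefficient of variation of 0.638 for H3R2me2s and 0.713 for H4R3me2a, than in replicate 2, with 0.331 and 0.336. Of the 229 bins, 160 (69.9%) were in the upper 25% of all autosomal bins for H3R2me2s in both replicates, against 21.7% of all bins. For H4R3me2a these were 158 (69.0%) against 21.6%, and for all 4 lists 153 (66.8%) against 20.4%. The share for all 4 lists was 42.9% on chromosomes 11 to 15 and 90.4% on 23 to 28. Few bins were poor: 5 (2.18%) were in the lower 25% in both replicates for H3R2me2s, against 20.7% of all bins, and 5 for H4R3me2a, against 20.3%. In all 4 lists 4 bins (1.75%) were, against 18% of all bins, 11.1% on 11 to 15 and 2.61% on 23 to 28. The 4 poorest bins were the leading pair of 17 and a pair in the middle of 20.

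**Figure D2:**
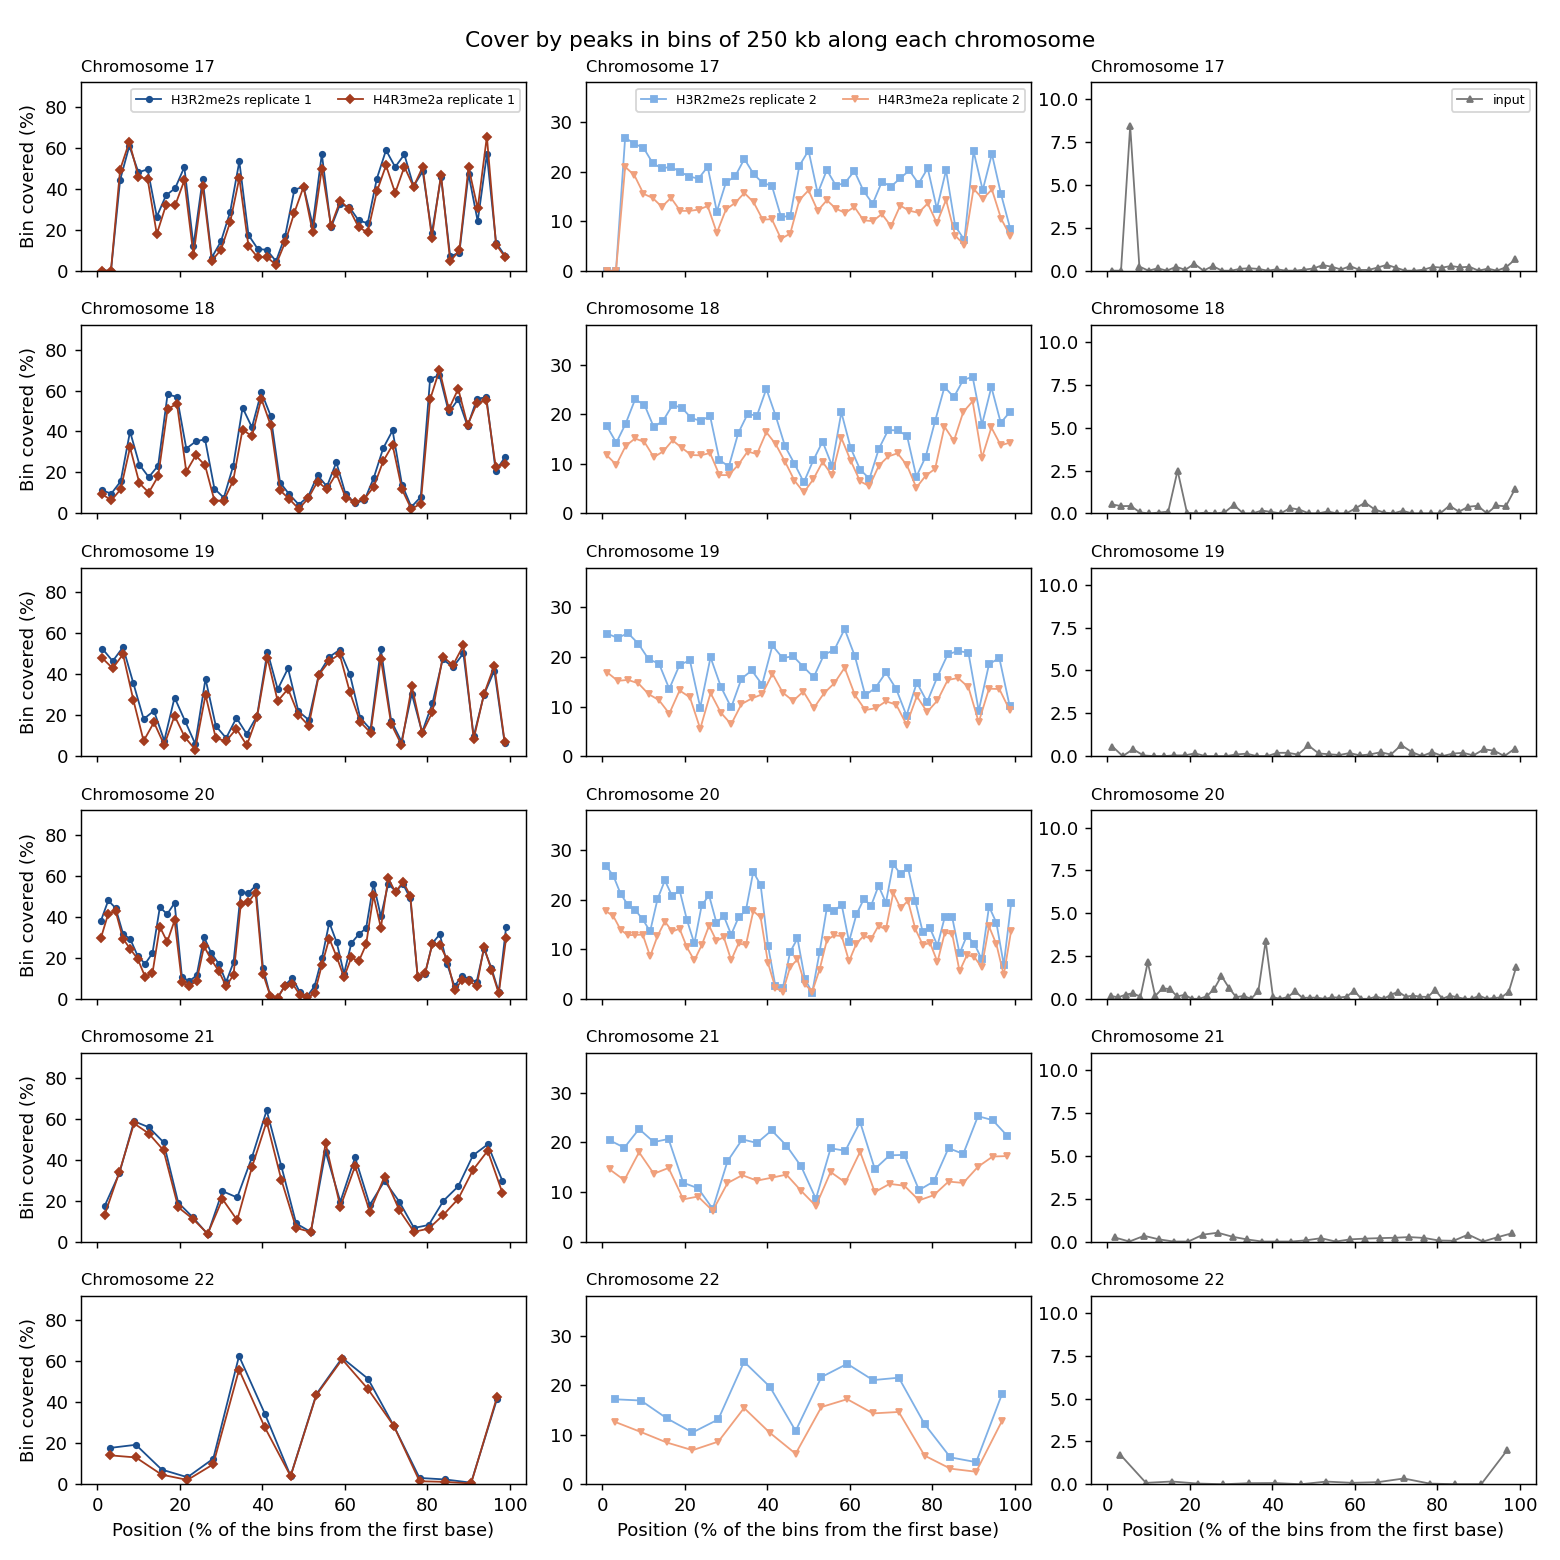
Percent of each 250 kb bin covered by peaks, along chromosomes 17 to 22 from the start (0) to the end (100% of the bins), for replicate 1 of both marks (left), replicate 2 of both marks (middle) and the input (right), with a separate vertical scale for each column. The curves of the marks run together in each replicate, and the empty start of 17 and the trough in the middle of 20 appear in all 4 ChIP lists. The input is near 0 in most bins. It is highest at the rise on 17, 8.45%, with lower rises elsewhere, among them 3.37% on 20 and 2.50% on 18.

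Chromosome 17 opened with an empty stretch and then rose to a long rich run. No list, the input included, held a peak in its leading 499.9 kb. All 5 lists then began at almost the same place, with peaks starting at 499948 and 499971 in the SOLiD lists and between 501898 and 501968 in the Illumina lists. The next bin, chr17:500001-750000, was covered to 44.4 and 26.9% by H3R2me2s in replicates 1 and 2 and to 49.4 and 20.9% by H4R3me2a. By mean rank over the 4 lists, used for the highest and lowest bin of each chromosome, the highest was its neighbour, chr17:750001-1000000. It had 60.9 and 25.6% for H3R2me2s and 62.9 and 19.3% for H4R3me2a. From chr17:500001 to 2500000 all 8 bins were in the upper 25% in all 4 lists, with mean cover of 44.6, 22.4, 41.1 and 15.3% for H3R2me2s replicates 1 and 2 and H4R3me2a replicates 1 and 2. Another run of 8 such bins reached from 5250001 to 7250000. Between them lay a mixed part, which held a run of 4 such bins from 3250001 to 4250000, with 28.5, 19.7, 22.8 and 13.9%. Its lowest bin, chr17:4750001-5000000, had 4.62 and 10.9% for H3R2me2s and 2.95 and 6.44% for H4R3me2a. A rich bin at chr17:10500001-10750000, with 56.9, 23.6, 65.5 and 16.4%, was followed by a decline to 7.10, 8.47, 6.51 and 7.02% in the last bin. In all, 31 of its 45 bins were in the upper 25% in all 4 lists.

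The rise on 17 was also the densest place of the input on these chromosomes. Between chr17:501968 and 593087, 91.1 kb, lay 55 of the 140 input peaks of the chromosome, 39.3%. Input peaks covered 23.04% of it. The marks covered 53.0 and 38.1% for H3R2me2s and 76.0 and 35.2% for H4R3me2a in replicates 1 and 2. Within it, at chr17:530001-540000 and 550001-560000, H3R2me2s replicate 1 held no peak, while H4R3me2a replicate 1 covered 91.0 and 94.1%. The Illumina lists covered both places, with 54.8 and 45.1% for H3R2me2s and 51.0 and 38.3% for H4R3me2a, and the input with 42.6 and 30.3%. Both SOLiD lists used the same control, whose signal at these places is not known from peak lists. The cause of the gap in H3R2me2s replicate 1 was not tested. Beyond this cluster, the bin with the highest cover had 3 input peaks over 0.240% of its length.

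Chromosome 18 had its richest stretch near its end. From chr18:9000001 to its last base at 10924467, 8 bins in a row were in the upper 25% in all 4 lists, with mean cover of 47.8 and 23.3% with H3R2me2s, and of 48.5 and 16.6% with H4R3me2a. The highest of all 229 bins in replicate 1 lay there, chr18:9000001-9250000, with 67.6% for H3R2me2s and 70.1% for H4R3me2a, and 25.5 and 17.5% in replicate 2. The bin before it, chr18:8750001-9000000, was high in replicate 1, with 65.6 and 55.7% for H3R2me2s and H4R3me2a, but not in H4R3me2a replicate 2, with 9.002%. A longer run of 10 bins from 500001 to 3000000 was less rich, with 33.8, 19.99, 26.4 and 13.1%. The middle was poorer: chr18:5250001-5500000, the lowest bin, had 17 and 24 H3R2me2s peaks and 8 and 21 H4R3me2a peaks, which covered 4.28, 6.28, 2.20 and 4.21%. No input peak lay in that bin. Of its 44 bins 29 were rich in all 4 lists.

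Chromosome 19 was rich from its start and had the fewest input peaks per Mb of the 6. The 4 bins from 1 to 1000000 had mean cover of 46.9 and 24.004% with H3R2me2s, and of 42.0 and 15.5% with H4R3me2a. A run of 10 bins from 3750001 to 6250000, with 36.6, 19.8, 32.9 and 13.3%, held its highest bin, chr19:5750001-6000000, with 51.9, 25.6, 49.8 and 17.8%. The lowest bin, chr19:2250001-2500000, had 5.996 and 9.80% for H3R2me2s and 3.21 and 5.51% for H4R3me2a, so no bin of this chromosome came near 0. The last bin was again low, with 6.49, 10.1, 7.10 and 9.27%. Of 40 bins 28 were rich in all 4 lists.

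Chromosome 20, the longest of the 6, had a deep trough within it. Its leading 6 bins were all rich, with mean cover of 35.4 and 20.9% with H3R2me2s, and of 31.2 and 14.5% with H4R3me2a. The most marked rise came later, over 9 bins from chr20:8500001 to 10750000, with 44.8, 21.8, 41.0 and 15.4%. Its peak bin, chr20:9750001-10000000, had 56.1, 27.2, 58.8 and 21.4%. Between these lay the trough: chr20:5750001-6250000 was covered to 0.914 and 2.35% by H3R2me2s and to 1.002 and 1.81% by H4R3me2a. After a partial return, chr20:6750001-7250000 was covered to 2.24, 2.66, 1.33 and 2.19%. The fall into the trough passed through 1 bin of middle level. Before it, chr20:5250001-5500000 had 55.2, 22.96, 51.9 and 16.4%, and the bin next to the trough, chr20:5500001-5750000, had 15.1, 10.8, 12.2 and 7.23%. A low bin near the far end, chr20:13500001-13750000, with 3.41, 6.86, 2.63 and 4.79%, was followed by a last bin with 35.1, 19.2, 29.6 and 13.8%. Of 56 bins 35 were rich in all 4 lists.

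Chromosome 21 had the largest share of rich bins, 21 of 28, and chromosome 22 the smallest, 9 of 16. On 21 the bins alternated between rises and dips: the highest, chr21:500001-750000, had 58.8, 22.7, 57.7 and 18.02%. The highest replicate 1 cover of H3R2me2s there was at chr21:2750001-3000000, with 64.1%. Its lowest bin, chr21:1750001-2000000, had 3.55 and 6.59% for H3R2me2s and 3.79 and 6.20% for H4R3me2a, with 5 input peaks. Chromosome 22 had a pair of rises, at chr22:1250001-1500000 with 62.6, 24.7, 56.0 and 15.4% and at chr22:2250001-2500000 with 61.7, 24.3, 61.0 and 17.2%. They were separated by chr22:1750001-2000000, with 4.06, 10.8, 3.95 and 6.15%. Towards its end, chr22:3250001-3750000 fell to 1.55, 4.94, 0.769 and 2.83%. The last bin then stood at 41.4, 18.1, 42.4 and 12.8%, in a bin of 186 kb that also held 14 of the 44 input peaks of the chromosome.

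**Figure D3:**
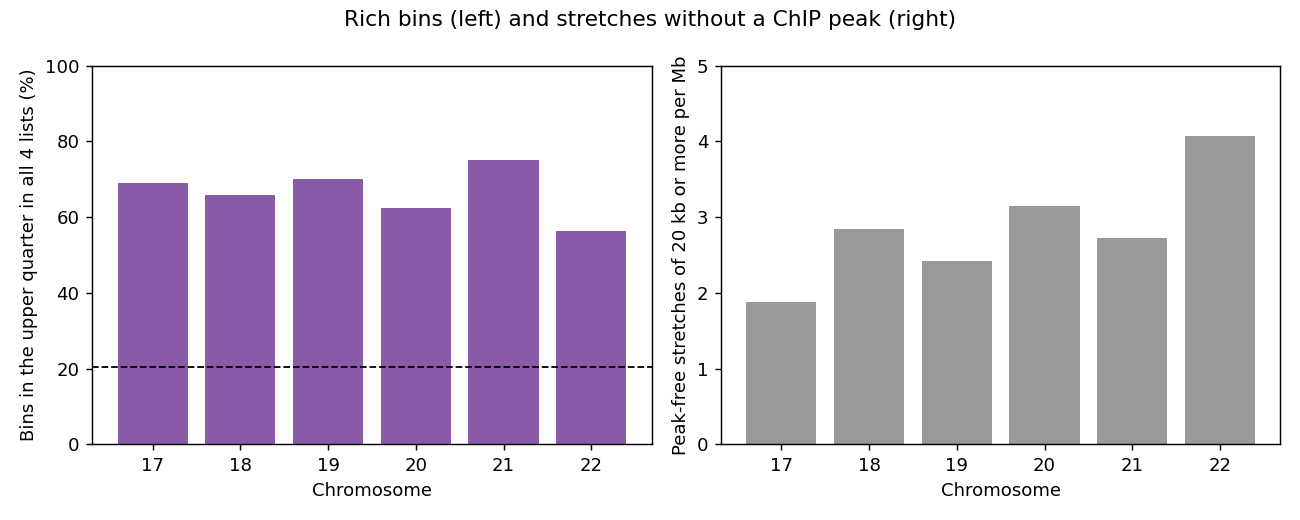
Left, percent of the 250 kb bins of each chromosome that are in the upper 25% of cover in all 4 ChIP lists, with a dashed line at the 20.4% found over all autosomal bins. Right, stretches of 20 kb or more without a ChIP peak per Mb of spanned length: 22 has the fewest rich bins and the most peak-free stretches per Mb, 4.06, and 17 the fewest stretches, 1.88.

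The ends were asked about separately, since the ends of the large chromosomes are rich in both marks, and in input peaks too. On chromosomes 17 to 22 the pooled ends were not rich in the marks. The 12 ends, the leading and the last 250 kb of each spanned length, had 0.790 and 0.977 times the H3R2me2s cover of the rest in replicates 1 and 2. For H4R3me2a the ratios were 0.775 and 1.03. The means of 0.884 ± 0.132 for H3R2me2s and 0.904 ± 0.182 for H4R3me2a (SD, n = 2) were within 1 SD of 1. Chromosomes 1 to 10 had 3.25, 2.00, 3.38 and 2.08, chromosomes 11 to 15 had 0.807, 1.05, 0.851 and 1.13, and chromosomes 23 to 28 had 0.822, 1.02, 0.839 and 1.07. The pattern at the ends was thus like that of the other microchromosomes in all 4 lists. Without the empty leading 500 kb of 17, an alternative added after seeing the data, the means were 1.01 ± 0.133 and 1.06 ± 0.173. The last end starts from a peak by construction.

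Single ends differed widely. Cover was above the rest of the chromosome in all 4 lists at 4 of 12 ends (33.3%), against 44.4% of the 54 ends of autosomes examined. These were both ends of 20, the leading end of 19 and the last end of 21. The leading 250 kb of 19 had 52.5 and 24.7% for H3R2me2s and 47.8 and 16.9% for H4R3me2a, against 28.8, 17.5, 25.6 and 11.8% in the rest. Below the rest in all 4 lists were both ends of 17 and the last end of 19, where cover was 6.41, 10.8, 7.05 and 9.37%. The replicates disagreed at 4 ends, since both ends of 18 and the leading ends of 21 and 22 were below the rest in replicate 1 and above it in replicate 2. The last end of 22 was above the rest in 3 lists. The input was different from the marks, with 10 of 12 ends above the rest and 3.44 times the cover, up to 20.7 times at the leading end of 22, where 15 input peaks covered 1.74%. This rise was not particular to 17 to 22, since the input ratio was 4.67 on chromosomes 1 to 10. It was 6.83 on 11 to 15 and 3.36 on 23 to 28. Off input peaks the mean ratios were 0.784 for H3R2me2s and 0.781 for H4R3me2a.

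**Figure D4:**
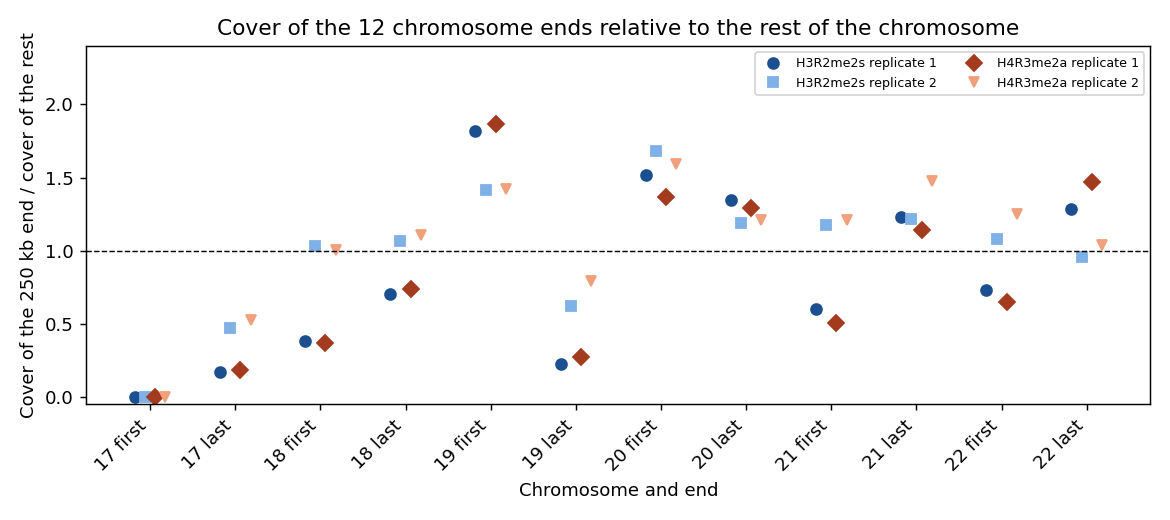
Cover of the leading and the last 250 kb of each chromosome divided by the cover of the rest, for each of the 4 ChIP lists. The dashed line marks a ratio of 1: points lie above it in all 4 lists at both ends of 20, the leading end of 19 and the last end of 21, and the leading end of 17 is at 0.

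Long blocks of peaks were a feature of the SOLiD lists. A block was a run of 5 or more peaks with gaps of at most 1 kb. H3R2me2s replicate 1 had 604 blocks, which held 32.5% of its peaks on 17 to 22, against 19.9% over the whole list. H4R3me2a replicate 1 had 423 blocks with 27.8% of its peaks, against 16.5%. In replicate 2 there were 11 H3R2me2s blocks with 0.445% of the peaks, against 0.159%, and 19 H4R3me2a blocks with 0.800%, against 0.424%. On chromosomes 11 to 15 and 23 to 28 the replicate 1 shares were 27.7 and 40.9% for H3R2me2s and 22.8 and 33.3% for H4R3me2a. In replicate 2 they were 0.212 and 0.361% for H3R2me2s and 0.430 and 0.778% for H4R3me2a. Chromosome 22 had the largest share of H3R2me2s replicate 1 peaks in blocks, 43.5%, although its peaks were the sparsest, and chromosome 18 the smallest, 27.6%. In H4R3me2a replicate 1 the order differed, with the largest share on 17, 33.9%, then 33.3% on 22, and the smallest on 20, 21.5%. Blocks in replicate 1 had a median length of 11.2 kb for H3R2me2s and 12.5 kb for H4R3me2a. In replicate 2 the medians were 5.66 and 4.03 kb. Block length thus differed more between replicates than between marks, and blocks are described per list.

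The longest block of all was at chr18:10187750-10255031, 67.3 kb with 32 H3R2me2s replicate 1 peaks. H3R2me2s covered 86.2% of it in replicate 1 and 14.5% in replicate 2, and H4R3me2a 86.3 and 6.07%. Its cover in replicate 2 was below the median of all 229 bins for both marks, 17.9 and 12.1%, while its replicate 1 cover was above the highest bin. The block was chosen from H3R2me2s replicate 1 peaks, so its high cover in that list follows from the choice. No input peak lay in it. The longest H3R2me2s replicate 1 blocks elsewhere were chr21:2706474-2766886 with 60.4 kb, chr20:10579583-10638032 with 58.5 kb, chr19:5513555-5561276 with 47.7 kb, chr17:7964120-8008455 with 44.3 kb and chr22:1278264-1316142 with 37.9 kb. All 5 were free of input peaks. In them H4R3me2a replicate 1 covered between 75.5 and 87.4%, H3R2me2s replicate 2 between 17.2 and 23.6% and H4R3me2a replicate 2 between 10.7 and 15.1%. The longest H4R3me2a replicate 1 blocks coincided with these on 18 and 19 only, at chr18:10198193-10255086 with 56.9 kb and chr19:5524911-5558566 with 33.7 kb. Elsewhere they lay at other places, at chr17:8471462-8523755 with 52.3 kb, chr21:3898171-3946877 with 48.7 kb, chr20:5392606-5426067 with 33.5 kb and chr22:2430798-2463030 with 32.2 kb.

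Blocks in replicate 2 were short. The longest for H3R2me2s was chr18:9189971-9196405, 6.44 kb with 5 peaks, where the marks covered 89.1 and 62.9% for H3R2me2s and 83.5 and 34.1% for H4R3me2a. For H4R3me2a it was chr17:556955-562548, 5.59 kb, which lies in the input cluster of 17 and had 8 input peaks. Of the 7006 regions under a peak in all 4 ChIP lists, 78 (1.11%) lay in blocks, against 0.515% on the other chromosomes of 1 to 28. On 17 to 22 these blocks numbered 15. The longest on each chromosome were chr18:10902642-10908204 with 5.56 kb, chr20:3510942-3516062 with 5.12 kb, chr22:2486541-2490607 with 4.07 kb, chr19:6275170-6279125 with 3.96 kb, chr21:593709-597470 with 3.76 kb and chr17:1360061-1363664 with 3.60 kb. Input peaks lay in the blocks on 18, 20 and 22, with 4, 4 and 1, and in none of the other three named.

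Places under a peak in all 4 lists numbered 7006, beside 40958 on the other chromosomes of 1 to 28. Those on 17 to 22 covered 3353 kb or 5.89% of the spanned length, and had a median width of 423 bp. They made up 6.24, 5.88, 5.94, 5.63, 6.45 and 4.72% of chromosomes 17, 18, 19, 20, 21 and 22. Of them 305 (4.35%) were on an input peak. Cover, width and the share on input peaks were not computed over the whole series. Off input peaks, the best mean rank of fold enrichment fell to a region of 957 bp on 17, at chr17:3762254-3763210, with deposited folds of 21.5 and 5.57 with H3R2me2s, and of 41.1 and 6.28 with H4R3me2a in replicates 1 and 2. On 18 it was chr18:10653009-10653716, with 18.7, 6.36, 32.2 and 6.01, and on 19 chr19:4258681-4259544, with 20.6, 7.86, 33.8 and 9.50. The region on 20 was chr20:13901694-13902726, in the last 250 kb of the chromosome, with 20.8, 6.18, 33.4 and 6.59. On 21 it was chr21:6028291-6029376, with 27.6, 7.93, 37.4 and 9.06. Chromosome 22 had its best region near the start, at chr22:104707-105464, with 37.8, 7.78, 32.8 and 8.40. All 6 were well above the medians of their lists, by which rank they were chosen.

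Long stretches without any ChIP peak were fewer per Mb than on larger chromosomes. There were 155 of 20 kb or more, 21, 31, 24, 44, 19 and 16 on 17, 18, 19, 20, 21 and 22, and together they made up 5515 kb or 9.69% of the spanned length. By chromosome, in the same order, they made up 9.80, 8.66, 6.86, 12.3, 8.12 and 12.9%. No input peak lay in any of them. From the replicate 1 lists alone they numbered 316, and from the replicate 2 lists alone 168. With all 4 lists their number per Mb was 2.72, against 11 on chromosomes 1 to 5, 6.40 on 11 to 15 and 0.449 on 23 to 28. The longest was the leading 499.9 kb of 17. Next came chr20:6843296-6989824 with 146.5 kb, in the trough of 20, which was separated by under 1 kb from another of 99.8 kb, chr20:6990295-7090086. The longest on the other chromosomes were chr19:7444351-7515761 with 71.4 kb, chr22:3387684-3450859 with 63.2 kb, chr21:5565227-5624403 with 59.2 kb and chr18:7174096-7230041 with 55.9 kb. Gaps in the assembly are not known from peak lists, and their part in these stretches was not tested.

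Bins that were almost free of peaks were rare. Only 11 of 229 bins (4.80%) were at least 90% free of ChIP peaks, against 49.1% of all autosomal bins. On chromosomes 11 to 15 and 23 to 28 the share was 29.1 and 2.61%. They fell into 7 zones, described here by a rule chosen after the values were seen. These were chr17:1-500000, chr18:5250001-5500000, chr20:5750001-6250000, chr20:6750001-7250000, chr20:13500001-13750000, chr21:1750001-2000000 and chr22:3250001-3750000. The zone on 22 still held 11 and 34 H3R2me2s peaks and 5 and 32 H4R3me2a peaks in replicates 1 and 2. In the zones outside 17, replicate 2 had the higher cover in every case for both marks, the opposite of the typical bin. Over the 227 bins with cover in all 4 lists, replicate 1 cover was a median of 1.47 times that of replicate 2 for H3R2me2s and 1.73 times for H4R3me2a. Replicate 1 was higher in 164 and 170 of those bins.

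The marks ran together along the 6 chromosomes, and over all their bins more closely within a replicate than across replicates. Over the 229 bins the Spearman correlation of H3R2me2s and H4R3me2a cover was 0.983 in replicate 1 and 0.941 in replicate 2. Between replicates it was 0.866 for H3R2me2s and 0.817 for H4R3me2a. On 22, with 16 bins, that order did not hold: the marks correlated at 0.959 in replicate 2, and the replicates at 0.959 for H3R2me2s and 0.968 for H4R3me2a. With the input, cover over the 229 bins correlated at 0.0885 and 0.128 for H3R2me2s and at 0.131 and 0.227 for H4R3me2a. These pooled values cover chromosomes of both signs, from -0.327 to -0.153 over the 4 lists on 21, to 0.300 to 0.423 on 20 and 0.567 to 0.667 on 22. On the other autosomes, over 3601 bins, the marks correlated at 0.973 and 0.986 and the replicates at 0.941 and 0.929. Bins share libraries, depth and base composition, and the SOLiD lists share a control, so these values are descriptions.

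**Figure D5:**
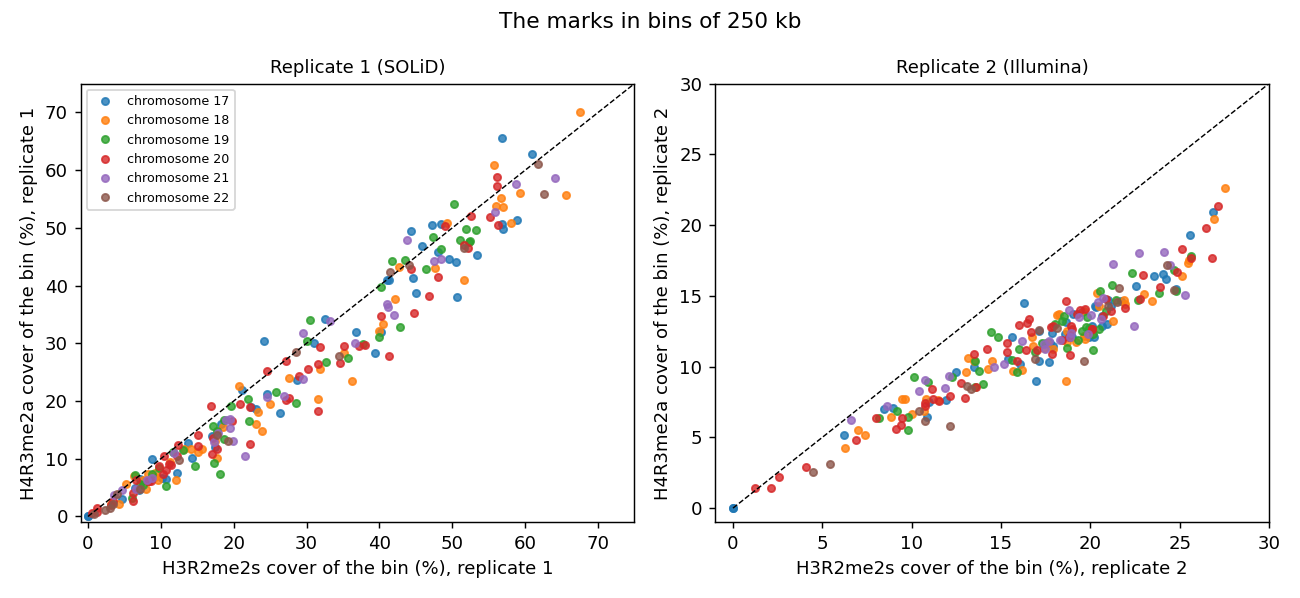
H4R3me2a cover against H3R2me2s cover in each 250 kb bin of chromosomes 17 to 22, in replicate 1 (left) and replicate 2 (right), both axes in percent of the bin and the dashed line at equal cover. Bins of all 6 chromosomes lie along the same band, around equal cover for the richest bins of replicate 1 and below it for nearly all bins of replicate 2.

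The ratio of the marks varied among bins, but less than their level. H4R3me2a cover divided by H3R2me2s cover had a median of 0.848 in replicate 1 and 0.680 in replicate 2. It was above 1 in 39 bins of replicate 1 and in 1 bin of replicate 2, and no bin was above 1 in both. The 39 bins included 10 on 17, of which 4 in a row lay at chr17:9750001-10750000, and 4 in a row at chr18:9000001-10000000, the richest part of 18. Ranked over both replicates, the highest ratios were at chr17:10250001-10500000, with 1.26 and 0.890, and in the last bin of 19, with 1.09 and 0.917. The lowest were at chr22:3000001-3250000, with 0.476 in both replicates, and at chr22:3500001-3750000, with 0.498 and 0.565. In both bins H3R2me2s covered at most 3.08% in replicate 1. The latter ratio rests on few peaks, 3 and 15 for H3R2me2s and 1 and 13 for H4R3me2a. H3R2me2s was the deeper library in both replicates, and the callers' d differed between the marks. The parts of depth and d in the ratio were not tested.

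Peak by peak, replicates overlapped for most members when all peaks were kept. With each list limited to its upper 50% by fold, the shares seen from replicate 1 were 18.7% for H3R2me2s and 21.6% for H4R3me2a. This cut was the median fold of each whole list. Median fold on 17 to 22 was 10.7 (H3R2me2s) and 16.1 (H4R3me2a) in replicate 1, against 9.99 and 14.3 on chromosomes 1 to 28. In replicate 2 it was 2.41 and 2.58, against 2.88 and 2.98. The cut thus kept a smaller part of replicate 2 than of replicate 1 here. Its part in the drop was not tested, and no whole-list share was computed at this cut. The shares that follow are for all peaks. Of the H3R2me2s replicate 1 peaks, 62.6% (Wilson 95% interval 61.8 to 63.4, counting error only) overlapped a replicate 2 peak by 1 bp or more, against 65.9% of the whole list. In the other direction it was 73.3% (72.5 to 74.0) against 56.3%. For H4R3me2a the shares were 63.5% (62.6 to 64.4) against 68.5% and 67.2% (66.4 to 68.1) against 51.2%. Seen from replicate 1 the share was thus below the whole list and seen from replicate 2 above it, for both marks. The same held on chromosomes 11 to 15 and 23 to 28. Their H3R2me2s shares were 62.8 and 62.7% from replicate 1 and 67.1 and 81.2% from replicate 2. Their H4R3me2a shares were 65.3 and 61.6%, and 61.4 and 76.6%. Chromosomes 1 to 5 went the other way, with 69.9 and 46.3% for H3R2me2s and 74.5 and 41.1% for H4R3me2a. The part of peak density and cover in these shares was not tested. Among the 6 chromosomes the share of H3R2me2s replicate 2 peaks found in replicate 1 was 76.1% on 17 and lowest, 63.2%, on 22. Peaks are not replicates, and intervals treat neighbours as independent, which they are not.

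Within a replicate most H4R3me2a peaks lay on an H3R2me2s peak. In replicate 1 these were 93.6% (93.1 to 94.0), against 89.3% of the whole list, and in replicate 2 84.1% (83.4 to 84.8), against 84.3%. Seen from H3R2me2s, 75.4% of replicate 1 peaks, against 69.4%, and 74.1% of replicate 2 peaks, against 73.8%, lay on an H4R3me2a peak. In replicate 2 the shares were near those of the whole list. In replicate 1 they were higher than in the whole list.

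Regions of 1 mark without the other were a small share here, as over all regions, and were narrower than those with both. Of 9895 H3R2me2s regions found in both replicates, 582 (5.88%) touched no H4R3me2a peak in either replicate, against 6.86% of all such regions. Of 8350 H4R3me2a regions 131 (1.57%) touched no H3R2me2s peak, against 2.32%. In the same order the shares were 5.80 and 2.07% on chromosomes 11 to 15 and 4.90 and 1.41% on 23 to 28. H3R2me2s was the deeper library in both replicates, and the part of depth in these shares was not tested. Median width was 380 bp for H3R2me2s regions without the other mark and 575 bp for those with it, and 278 and 458 bp for H4R3me2a. A narrower region has less room to touch another peak, and the part of this in the widths was not tested. The highest ranked H3R2me2s regions without H4R3me2a were chr20:1165621-1166119, with deposited folds of 12.98 and 4.16, and chr18:6431287-6431723, with 16.8 and 2.53. The highest ranked H4R3me2a regions without H3R2me2s were chr17:10399175-10399451, with 23.9 and 3.10, and chr22:1196692-1196912, with 29.6 and 2.41. None of the 4 was on an input peak.

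The input was sparse, and more of it lay under replicate 2 peaks of the marks than under replicate 1 peaks. Replicate 2 shared platform, caller and the lack of a control with the input and was deeper than replicate 1. The parts of these were not tested. Of the 650 input peaks, 61.2% overlapped an H3R2me2s replicate 1 peak, against 49.3% of the whole input list, and 94.5% an H3R2me2s replicate 2 peak, against 89.3%. For H4R3me2a the shares were 71.7% against 52.3% and 92.2% against 87.6%. Seen from the marks the share was small. It was 2.15% (1.92 to 2.403) of H3R2me2s replicate 1 peaks against 3.72%, 3.98% (3.65 to 4.34) of replicate 2 peaks against 6.13%, 3.11% (2.81 to 3.46) of H4R3me2a replicate 1 peaks against 5.16% and 4.204% (3.86 to 4.58) of replicate 2 peaks against 6.63%. All 4 shares were below those of the whole lists, as were those on 11 to 15 and 23 to 28. For H3R2me2s replicate 1 the latter were 2.74 and 3.47%. Input peaks numbered 11.4 per Mb on 17 to 22 against 9.86 on chromosomes 1 to 28. H3R2me2s peaks numbered 248 against 104 and 217 against 122 per Mb in replicates 1 and 2, and H4R3me2a peaks 193 against 78.5 and 208 against 116. The part of density and cover in the shares seen from either side was not tested. All 79 input peaks of 19 overlapped a replicate 2 peak of each mark.

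Input peaks were unevenly spread. Bins without any numbered 65 of 229, and the median bin had an input cover of 0.110%. The longest run with gaps of at most 1 kb was chr17:515686-522147, 9 peaks over 6.46 kb, in the cluster described above. Chromosome 22 had 5 peaks over 3.997 kb at chr22:3849144-3853140, near its end, and 20 had 4 over 3.08 kb at chr20:5454591-5457667. At the latter, replicate 1 of both marks covered all bases, and replicate 2 covered 86.4% for H3R2me2s and 81.4% for H4R3me2a. The run on 18, chr18:1825240-1826861, had 3 peaks, and the bin around it held 30 input peaks. On 21 the run of 2 peaks at chr21:1907532-1908514, at the edge of a poor stretch, was under replicate 2 peaks of both marks and under none of replicate 1.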

How the data were processed

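The 5 deposited peak lists were used as the authors made them, 1 list per library and none pooled, and peaks on chromosomes 17 to 22 were taken from the chromosome column. Per the file headers, replicate 1 lists came from MACS 1.4.2 against 1 shared control of 23.3 M tags at a p cutoff of 1e-05, and replicate 2 and input lists from MACS 2.0.10.20120913 with a q cutoff of 0.05 and no control, each with 1 tag per position and an effective genome size of 1e+09. Depth per the file headers was 14.2 and 35.1 M tags for H3R2me2s, 10.3 and 31.2 M for H4R3me2a and 27.1 M for the input. The SOLiD headers name a folder with the word gal3; for the Illumina lists, aligner and build were not given in the sources used here, and coordinates are printed as deposited. The labels do not say whether replicates came from separate animals, so spread and p-values over libraries may be technical.

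Deposited values per peak were the tag count (SOLiD) or pileup signal (Illumina), the fold enrichment ratio over local background, a −log10 of the p-value and q-value (Illumina) or a score of 10 times that −log10 with a false discovery rate in percent (SOLiD). These values are the authors' and served only to rank, filter or describe peaks within a list, since a caller without a control and one with a control do not share a scale.

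From the intervals, density, cover, 250 kb bins, ends, blocks, stretches and overlaps were computed with Python 3.11.15, numpy 2.4.6 and pandas 2.3.3, and the interval steps were tested on simulated lists. Bins under 125 kb at a chromosome's end were kept out of the ranking of bins. The upper and lower 25% of bins were taken over chromosomes 1 to 28. Named regions followed a rule: per chromosome the highest and lowest bin by mean rank over the 4 ChIP lists, the longest block per list, the longest stretch without a ChIP peak, the region in all 4 lists off input peaks with the best mean rank of fold, the longest run of input peaks, and the 2 top regions of each mark without the other. Further bins were named after their values were seen, to describe each chromosome. The members, lists and rules were chosen with earlier results of these data known. Replicate number marks the platform, per the labels' protocols. It is no shared animal or batch that the labels name, so the test without pairing is the one reported. Alternatives tried were stricter peaks, peaks off the input, a larger overlap, other bin and end sizes, other gaps and leaving out each replicate.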

Additional observations from a re-analysis of the deposited data

How the results depend on the processing

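Of 71 alternative values, 45 were labelled as staying and 26 as moving further, and 11 were chosen after seeing the data. Staying meant within the spread between libraries, the counting interval or 1.5 times the count. For the difference of the marks it meant keeping the sign, the only direction checked, and none turned. With 2 libraries, a value with 1 replicate left out always lies within 1 SD of the mean. For density and ends those values could thus not move. Density over chromosomes 1 to 5 was 2.17 to 3.64 for H3R2me2s and 2.23 to 3.93 for H4R3me2a when each replicate was left out, and the difference of the marks 0.0610 to 0.284. With the replicate number as a block (paired by platform) that difference gave p = 0.5 by exact permutation, the smallest possible, so the block decides nothing. Bins in the upper 25% were 73.8 to 76.0% for H3R2me2s and 74.2 to 75.1% for H4R3me2a from single replicates. The ends were 0.790 to 0.977 times the rest for H3R2me2s and 0.775 to 1.03 for H4R3me2a from single replicates, and 1.03 for H3R2me2s with ends of 1 Mb. Both sides of 1 are thus reached, so the ends are neither called richer nor poorer.

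Overlaps depended most on which peaks were kept. The upper 50% by fold was cut at the median of each whole list, which kept unequal parts of the replicates on these chromosomes. Replicates overlapped for 59.0% of H3R2me2s peaks when 50% of the shorter peak was asked for, for 18.7% in the upper 50% by fold and for 60.6% off input peaks; for H4R3me2a these were 61.3, 21.6 and 61.5%. Marks overlapped for 92.9 and 82.7% of peaks in replicates 1 and 2 with 50% of the shorter peak, for 82.0 and 70.4% in the upper 50%, and for 83.2% off input peaks in replicate 2. On input peaks lay 1.89% of H3R2me2s replicate 1 peaks with 50% of the shorter peak, and in the upper 50% 2.53 and 7.996% of H3R2me2s and 3.76 and 8.46% of H4R3me2a peaks. Regions without the other mark rose to 10.8% for H3R2me2s and 7.07% for H4R3me2a in the upper 50%. None of these shares was computed over the whole series at these settings. Blocks in all 4 lists numbered 3 with gaps of 500 bp and 55 with gaps of 2 kb, and the share of peaks in blocks was 10.7 and 59.9% for H3R2me2s replicate 1 and 9.35 and 53.1% for H4R3me2a replicate 1. Stretches without a ChIP peak numbered 168 to 316 when a replicate was left out, the latter without replicate 2. The cause of these changes was not tested.

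The main limit is that 2 libraries per mark differ in platform, depth, caller and control at once. SOLiD lists had 10.3 and 14.2 M tags and Illumina lists 31.2 and 35.1 M, and a peak found in only 1 replicate is not shown to be absent from the other. On each platform the deeper library was H3R2me2s and the callers' d differed between marks, so mark, depth and d cannot be told apart either. A poor bin is a bin with few called peaks, and assembly gaps are not known here. Overlap of replicates and blocks per list could not be rerun without a replicate.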
